A study of Homo sapiens with 9 samples.

Results

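The genes of cholesterol and fatty acid synthesis were followed as RNA counts in 9 cultures of human mammary epithelial cells. The list held 33 genes, taken by symbol from the 60199 symbols of the count table, and all 33 had enough counts to be tested. By role it held 18 enzymes of the sterol arm, 9 enzymes of the fatty acid arm, 4 regulators and 2 sterol transport proteins. The question put to the data was how the sterol and fatty acid arms stood in each line.

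Each of 3 lines was represented by 3 separate cultures, sequenced as poly-A RNA. CT was untreated MCF10A, a non-tumour mammary epithelial line with CDKN2A deleted and MYC amplified. Every culture here derives from this line and shares that background. MC26 came from unsorted MCF10A kept for a long time in BMP2, a bone morphogenetic protein, and IL6, an inflammatory cytokine. M1B26 came from MCF10A sorted for the BMP receptor BMPR1B and then given the same factors. The paper reports that these sorted cells transformed within a few weeks, faster than unsorted cells. M1B26 was built from 3 colonies picked in soft agar and expanded with the factors. MC26 and M1B26 thus differ by the sort and the picking as well as by the line itself, and the length of exposure may differ too. The parental medium held horse serum, insulin, hydrocortisone, cholera toxin and EGF. Whether the factors were still present when RNA was taken is not given in the sources used here, and neither are library preparation batches, so line and batch cannot be told apart.

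Libraries held 21425118 to 80076597 counts, the shallowest being CT replicate 2. Log2 levels correlated over genes at 0.993 to 0.999 within a line and at 0.971 to 0.988 between lines. All 9 epithelial markers were detected, with a summed level of 9460 to 19900 CPM (counts scaled to a library of 1000000, with TMM factors), whereas the 5 adipocyte markers together reached at most 0.451 CPM and ADIPOQ was at 0 in every library. Fibroblast markers summed to 16.7 to 56 CPM, endothelial markers to 1.02 to 7.78 CPM and leukocyte markers to 6.9 to 47.9 CPM, nearly all of the last from CD14, with CD3E and TYROBP at 0 in every library. Their part in the results was not tested. For the lipid genes, MC26 replicate 1 and M1B26 replicate 3 stood below the other cultures of their lines, and values without them are given beside the results they moved most. In bulk RNA, fewer cells that express a gene and less RNA per cell cannot be told apart.

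Cells make cholesterol from acetyl-CoA through mevalonate, farnesyl diphosphate, squalene and lanosterol, and they make fatty acids from the same acetyl-CoA through malonyl-CoA. Most enzymes of both arms are targets of the sterol regulatory element binding proteins (SREBPs), membrane-bound factors that SCAP escorts out of the endoplasmic reticulum when sterol is low and that INSIG1 holds back when sterol is plentiful. The product of SREBF2 acts mainly on the sterol arm and that of SREBF1 mainly on the fatty acid arm, and epithelial cells in culture use both arms for membrane growth.

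Promoter windows from RefSeq (GRCh38.p14, 250 bases before to 50 after a transcript start) were matched by symbol for 29 of the 33 genes. No window was matched for ACAT2, FDFT1, SQLE and FASN. Each window was searched on both strands for 3 motifs, none of which contains another, namely CACNCCAC (a core of the sterol regulatory element), CCAAT (the NF-Y box) and GGGCGG (the GC box). CACNCCAC was found in 6 of the 29 genes (20.7%), which were IDI1, SC5D, ACACA, SCD, SREBF2 and INSIG1, against 7.05% of all 27305 genes with a window and 7.68% of the tested genes with one. CCAAT was found in 72.4% of the 29 genes and in 13 of 15 sterol enzymes (86.7%), against 39.7% of all genes and 43.2% of tested genes. GGGCGG was found in 96.6%, against 48.3% and 75.8%. A gene with several windows counted once if any held the motif, and these matches are a description of letters, not of binding.

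The 250 bases before the start are shown for 4 genes whose RNA the results below turn on. INSIG1 (chr7:155297628-155297877, plus strand) and STARD4 (chr5:111512536-111512785, minus strand) passed the test in opposite directions against CT, LSS (chr21:46228775-46229024, minus strand) was among the sterol enzymes that fell in M1B26, and SREBF2 (chr22:41832855-41833104, plus strand) encodes the main factor of the sterol arm. Sequences run 5′ to 3′ on the strand of the gene, and capitals mark CACNCCAC and CCAAT matches on either strand.
INSIG1: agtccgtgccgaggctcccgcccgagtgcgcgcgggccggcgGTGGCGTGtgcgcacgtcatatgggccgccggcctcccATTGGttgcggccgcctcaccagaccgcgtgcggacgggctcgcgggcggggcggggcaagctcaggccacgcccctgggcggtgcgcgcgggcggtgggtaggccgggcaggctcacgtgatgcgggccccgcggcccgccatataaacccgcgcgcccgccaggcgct
SREBF2: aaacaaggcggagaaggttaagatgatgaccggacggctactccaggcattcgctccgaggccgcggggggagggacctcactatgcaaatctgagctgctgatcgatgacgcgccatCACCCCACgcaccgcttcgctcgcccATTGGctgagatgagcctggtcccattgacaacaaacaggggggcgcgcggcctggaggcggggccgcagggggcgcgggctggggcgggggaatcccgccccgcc
LSS: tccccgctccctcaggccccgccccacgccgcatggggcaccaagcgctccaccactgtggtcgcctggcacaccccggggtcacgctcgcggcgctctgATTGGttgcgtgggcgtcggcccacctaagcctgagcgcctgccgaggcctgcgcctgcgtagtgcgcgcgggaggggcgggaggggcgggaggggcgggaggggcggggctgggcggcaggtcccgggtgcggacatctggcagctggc
STARD4: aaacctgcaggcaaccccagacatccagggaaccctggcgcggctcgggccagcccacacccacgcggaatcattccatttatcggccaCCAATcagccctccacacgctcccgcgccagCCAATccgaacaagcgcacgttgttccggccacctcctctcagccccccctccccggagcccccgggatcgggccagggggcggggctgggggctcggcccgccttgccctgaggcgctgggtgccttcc

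INSIG1 and SREBF2 each held 1 CACNCCAC match upstream of 1 CCAAT match. The CCAAT match lay on the strand opposite to the one shown, where it appears as ATTGG. LSS and STARD4 held no CACNCCAC match in this window, with 1 and 2 CCAAT matches.

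Levels differed widely among the genes. Per kilobase of exon (RPKM, CPM divided by exonic length), the highest in CT were SCD at 383 ± 44.1 (SD, n = 3), FDPS at 232 ± 13.7, FASN at 219 ± 38.9 and ACLY at 151 ± 8.51. SCD inserts the first double bond into fatty acids, FDPS makes farnesyl diphosphate, FASN builds palmitate and ACLY releases cytosolic acetyl-CoA from citrate. FDPS and FASN did not differ beyond their spread in CT. The lowest were TM7SF2 at 4.03 ± 0.615, HSD17B7 at 6.35 ± 0.197 and STARD4 at 7.18 ± 0.857. All 33 genes together took 0.913% to 1.26% of a library, lowest in MC26 replicate 1 and highest in M1B26 replicate 1.

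A gene was called where the Benjamini-Hochberg adjusted p over all 15717 tested genes was under 0.05 in edgeR's quasi-likelihood test. In MC26 against CT, 9 genes were called, 3 higher and 6 lower, against a background of 38.7% of all tested genes called (18.8% higher and 19.9% lower). In M1B26 against CT, 13 were called, 6 higher and 7 lower, against 48.9% (25.2% higher and 23.7% lower). In M1B26 against MC26, 8 were called, 4 higher and 4 lower, against 39.5% (21.2% higher and 18.4% lower). Scaling by total counts in place of TMM moved the higher share of all calls from 48.5% to 35.8% in MC26 against CT and from 51.5% to 39.6% in M1B26 against CT. On that scale the lipid genes counted 3 higher and 10 lower in the first comparison and 4 higher and 10 lower in the second. Both comparisons with CT use the same 3 CT libraries, so their values are set side by side and not counted as 2 observations.

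**Figure D1:**
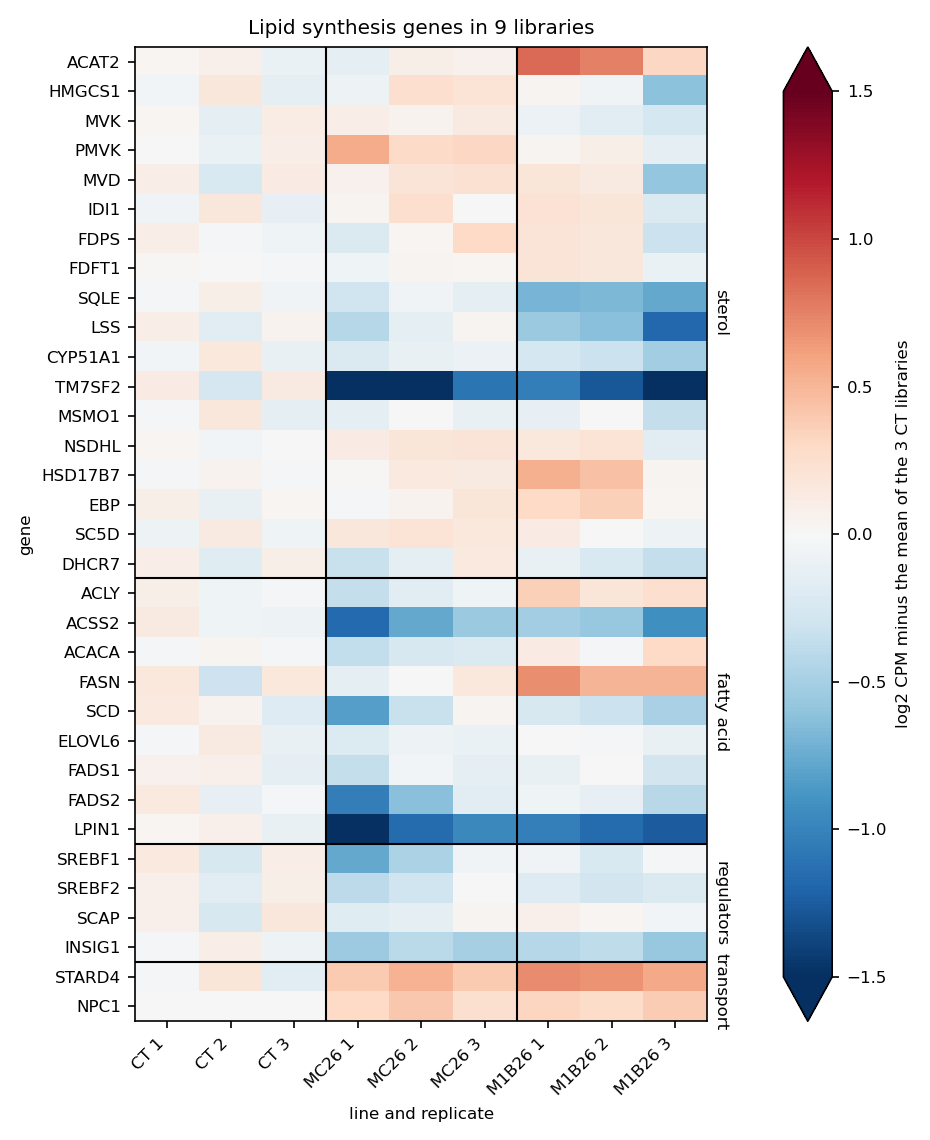
Log2 CPM of 33 lipid synthesis genes (rows, by role) in 9 libraries (columns, line and replicate), each minus the mean of the 3 CT libraries; red is above and blue below, and the scale ends at 1.5. TM7SF2 and LPIN1 are the deepest blue rows in MC26 and M1B26, and M1B26 replicate 3 is paler or bluer than the other M1B26 columns across the sterol rows.

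The sterol arm as a whole stayed near its CT level in MC26, with 2 of 18 enzymes called, against 38.7% of all tested genes. PMVK, which adds the second phosphate to mevalonate, rose in MC26. TM7SF2, which reduces the C14 double bond of sterol intermediates, fell in both lines and had the lowest estimate of the list in each. The median log2 fold change of the arm was 0.063 in MC26 against CT, beside 0.001 over all tested genes.

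TM7SF2 stood at 14.8, 11.3 and 15.0 CPM in CT, at 1.94, 3.92 and 6.14 CPM in MC26 and at 6.38, 5.35 and 3.32 CPM in M1B26. Every CT culture was above every culture of the other lines, while MC26 and M1B26 overlapped. In MC26 it was at 0.290 times its CT level (log2 fold change -1.78, SE 0.33, adjusted p = 0.00179), and in M1B26 at 0.361 times (-1.47, SE 0.33, adjusted p = 0.00347). Without MC26 replicate 1, its lowest culture, the first was -1.45 (adjusted p = 0.00259). Without M1B26 replicate 3, the lowest M1B26 culture, the second was -1.23 (adjusted p = 0.0148), near the -1.09 of LPIN1 under the same setting. TM7SF2 lies on chromosome 11 (65111845 to 65116384, plus strand). Gene positions are those of GENCODE v44 on GRCh38.

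PMVK stood at 59.7, 55.7 and 64.2 CPM in CT and at 88.3, 72.9 and 74.0 CPM in MC26, without overlap. It stood at 61.4, 63.6 and 54.5 CPM in M1B26. PMVK was 1.31 times its CT level in MC26 (log2 fold change 0.39, SE 0.093, adjusted p = 0.00742), and M1B26 was below MC26 at a log2 difference of -0.39 (SE 0.093, adjusted p = 0.0071). MVK, the kinase one step before PMVK, was not called against CT (MC26 0.09, adjusted p = 0.36; M1B26 -0.18, adjusted p = 0.0732) but was lower in M1B26 than in MC26 (-0.27, adjusted p = 0.0158), a call lost without M1B26 replicate 3 (-0.23, adjusted p = 0.0672).

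In M1B26, 6 of 18 sterol enzymes were called, 2 higher and 4 lower than in CT, against 48.9% of all tested genes called. The first enzyme of the arm, ACAT2, rose, as did HSD17B7, a ketone reductase of C4 demethylation. The 4 lower were SQLE, which makes squalene epoxide, LSS, which closes it to lanosterol, CYP51A1, which removes the C14 methyl group, and TM7SF2. The arm's median was -0.033, beside 0.00188 over all tested genes, and 0.062 without M1B26 replicate 3.

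SQLE stood at 416, 449 and 407 CPM in CT, at 345, 408 and 387 CPM in MC26 and at 262, 265 and 249 CPM in M1B26. The M1B26 cultures lay close together and below all others. SQLE was at 0.611 times its CT level in M1B26 (log2 fold change -0.71, SE 0.075, adjusted p = 2.54e-05) and at 0.681 times its MC26 level (-0.55, adjusted p = 0.000263). MC26 and CT were not told apart (-0.16, adjusted p = 0.117).

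LSS stood at 324, 272 and 313 CPM in CT, at 225, 274 and 312 CPM in MC26 and at 205, 196 and 133 CPM in M1B26. Its M1B26 cultures were below every other culture, with replicate 3 the lowest. The log2 fold change was -0.77 against CT (SE 0.16, adjusted p = 0.00234) and -0.61 against MC26 (adjusted p = 0.0118), and without M1B26 replicate 3 these were -0.59 (adjusted p = 0.00473) and -0.43 (adjusted p = 0.0296).

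CYP51A1 stood at 285, 326 and 271 CPM in CT and at 244, 235 and 205 CPM in M1B26, without overlap (-0.37, SE 0.089, adjusted p = 0.00584), and at 252, 272 and 275 CPM in MC26 (-0.14, adjusted p = 0.232). M1B26 and MC26 did not overlap either, but CYP51A1 missed the threshold there (-0.22, adjusted p = 0.0658). It passed without CT replicate 2 (-0.23, adjusted p = 0.0272), when only the 6 libraries compared were fitted (-0.23, adjusted p = 0.0422) and in DESeq2 (-0.23, adjusted p = 0.0389). In the annotation 68.2% of its exonic length is shared with an unnamed gene of the same strand, and 2.6% with AKAP9 on the opposite strand, which itself fell in M1B26 (-0.74, adjusted p = 0.000228). Whether the counting used strand is not given in the sources used here, so the value of CYP51A1 is uncertain to that extent.

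ACAT2, which joins acetyl-CoA units at the head of the arm, stood at 170, 176 and 156 CPM in CT, at 152, 178 and 175 CPM in MC26 and at 300.0, 282 and 207 CPM in M1B26. All M1B26 cultures were above all others. The log2 fold change was 0.65 against CT (SE 0.12, adjusted p = 0.00134) and 0.65 against MC26 (adjusted p = 0.00218), and 0.80 against CT without M1B26 replicate 3. ACAT2 shares 17.2% of its exonic length with TCP1 and 5.0% with SOD2, both on the opposite strand and both higher in M1B26 than in CT (TCP1 0.40, adjusted p = 0.000412, and SOD2 1.46, adjusted p = 0.00347). Reads of these genes could not be separated here.

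HSD17B7 stood at 29.9, 31.5 and 29.8 CPM in CT and at 44.1, 41.5 and 31.4 CPM in M1B26, where replicate 3 fell within the CT range. Its log2 fold change was 0.36 (SE 0.11, adjusted p = 0.0191), and the call was lost without CT replicate 1 or 3 or M1B26 replicate 1 or 2 (adjusted p = 0.0541 to 0.0816) and with total counts (adjusted p = 0.0665). Without M1B26 replicate 3 it was 0.50 against CT (adjusted p = 0.00063), and the comparison with MC26 went from 0.26 (adjusted p = 0.0863) to 0.39 (adjusted p = 0.004).

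The other 10 sterol enzymes passed the test in no comparison. They were HMGCS1, which makes the precursor of mevalonate, MVD, which completes isopentenyl diphosphate, IDI1, which isomerises it, FDPS and FDFT1, which lead to squalene, and MSMO1, NSDHL, EBP, SC5D and DHCR7, which turn lanosterol into cholesterol. Their log2 fold changes against CT ran from -0.10 (DHCR7) to 0.17 (SC5D) in MC26 and from -0.23 (DHCR7) to 0.23 (EBP) in M1B26. NSDHL, at 65.8 to 69.5 CPM in CT and 74.2 to 77.9 CPM in MC26, and SC5D, at 78.1 to 90.6 and 91.7 to 94.5 CPM, did not overlap between CT and MC26 but missed the threshold (adjusted p = 0.162 and 0.0937). With M1B26 replicate 3 left out, EBP (0.33, adjusted p = 0.0108, and 0.26 against MC26, adjusted p = 0.0447) and FDFT1 (0.19, adjusted p = 0.0452) passed in M1B26 against CT, and NSDHL (0.17, adjusted p = 0.049) passed in MC26 against CT. HMGCS1 and EBP share 37.7% and 36.4% of their exonic length with unnamed genes, so their values are uncertain to that extent. Without CT replicate 2, SC5D was called higher in MC26 than in CT (0.25, adjusted p = 0.0132), and M1B26 was below MC26 (-0.17, adjusted p = 0.0364).

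**Figure D2:**
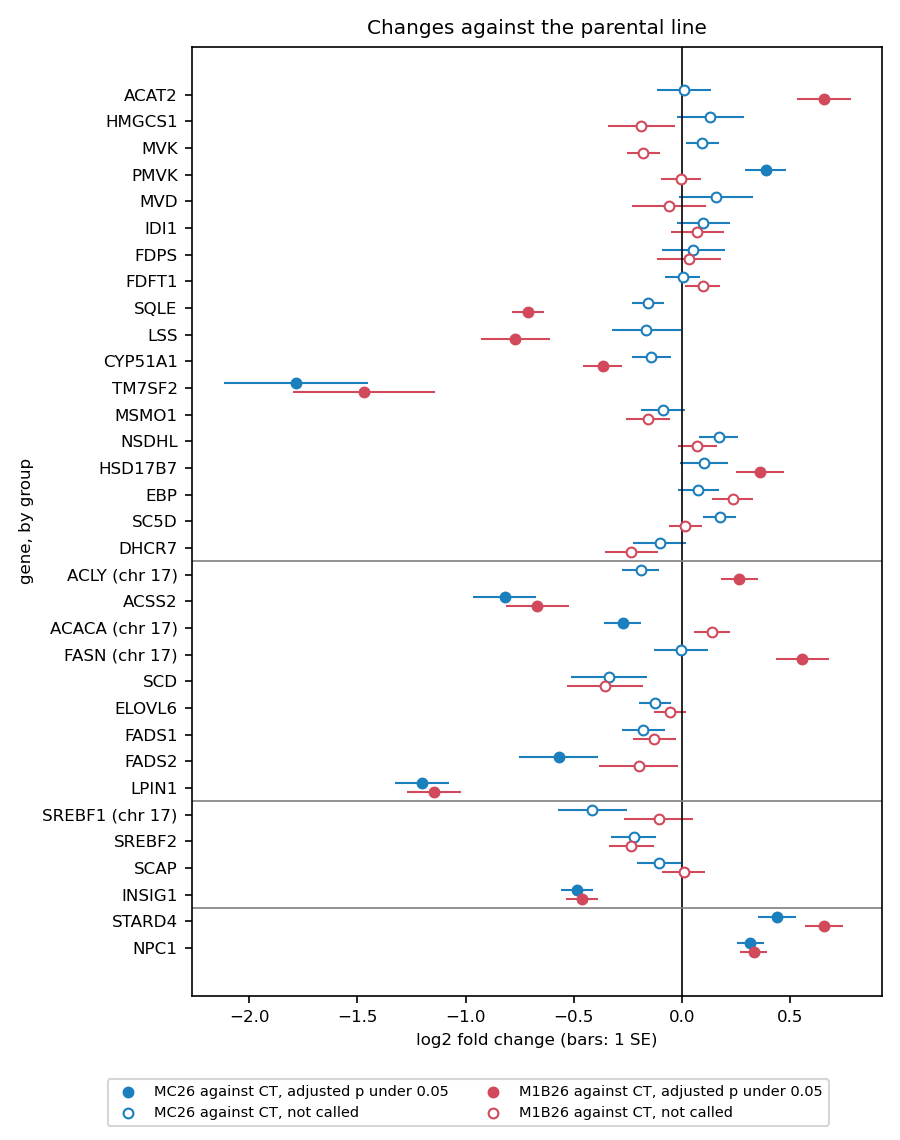
Log2 fold changes of 33 genes in MC26 against CT (blue) and M1B26 against CT (red), with bars of 1 SE, by role; filled points passed an adjusted p under 0.05 in edgeR. TM7SF2 and LPIN1 lie beyond a change of 1 to the left in both lines, and FASN and ACLY lie to the right only for M1B26.

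In MC26 against CT, 38.7% of all tested genes were called (19.9% lower). Of the 9 fatty acid enzymes, 4 were called, all lower than in CT, and 5 were not. Without CT replicate 1 or 3 or MC26 replicate 1 or 2 the count was 2, and without MC26 replicate 3 it was 6. The 4 were LPIN1, which makes diacylglycerol from phosphatidate and also acts as a coregulator in the nucleus, ACSS2, which makes acetyl-CoA from acetate, FADS2, the delta-6 desaturase, and ACACA, which makes malonyl-CoA. The median of the arm was -0.27 in MC26 against CT, or -0.14 with MC26 replicate 1 left out, and all 9 log2 fold changes were below 0. FASN was the nearest to 0 at -0.0044 (SE 0.12, adjusted p = 0.982).

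LPIN1 stood at 204, 210 and 185 CPM in CT, at 68.7, 89.5 and 102 CPM in MC26 and at 97.0, 89.7 and 83.7 CPM in M1B26. Both lines were well below CT and overlapped each other. LPIN1 was at 0.435 times its CT level in MC26 (log2 fold change -1.20, SE 0.13, adjusted p = 3.52e-05) and at 0.452 times in M1B26 (-1.15, SE 0.12, adjusted p = 3.24e-05). It lies on chromosome 2 (11677595 to 11827409, plus strand).

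ACSS2 stood at 139, 121 and 120 CPM in CT, at 55.7, 73.8 and 85.2 CPM in MC26 and at 87.4, 84.6 and 66.6 CPM in M1B26, again with CT apart from both. Its log2 fold change was -0.82 in MC26 (SE 0.15, adjusted p = 0.00137) and -0.67 in M1B26 (SE 0.15, adjusted p = 0.00318). FADS2 stood at 357, 296 and 315 CPM in CT and at 156, 207 and 289 CPM in MC26 (-0.57, SE 0.18, adjusted p = 0.0298), the MC26 cultures being widely spread, and at 307, 295 and 240 CPM in M1B26 (-0.20, adjusted p = 0.39). The FADS2 call was lost without CT replicate 1 or 3 or MC26 replicate 1 or 2 (adjusted p = 0.0555 to 0.103), with a log2 fold change of -0.37 without MC26 replicate 1.

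SCD, FADS1 and ELOVL6, the desaturases and elongase that finish common fatty acids, were called in neither line. SCD stood at 2207, 2070 and 1756 CPM in CT, at 1125, 1589 and 2061 CPM in MC26 (-0.34, adjusted p = 0.152) and at 1691, 1596 and 1425 CPM in M1B26 (-0.36, adjusted p = 0.115), where it did not overlap CT. SCD passed in MC26 against CT without MC26 replicate 3 (-0.57, adjusted p = 0.00997) but was at -0.14 with replicate 1 left out (adjusted p = 0.463). In M1B26 against CT it passed when only the 6 libraries compared were fitted (-0.36, adjusted p = 0.00906). It also passed there without MC26 replicate 1 (-0.35, adjusted p = 0.0249) or 3 (-0.36, adjusted p = 0.0365). With no filter on low counts SCD passed in both comparisons with CT (MC26 -0.33, adjusted p = 0.0108; M1B26 -0.34, adjusted p = 0.00596). FADS1 was at -0.18 and -0.13, and ELOVL6 at -0.12 and -0.05. FADS1 and FADS2 lie on opposite strands and share 490 bases of exon.

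**Figure D3:**
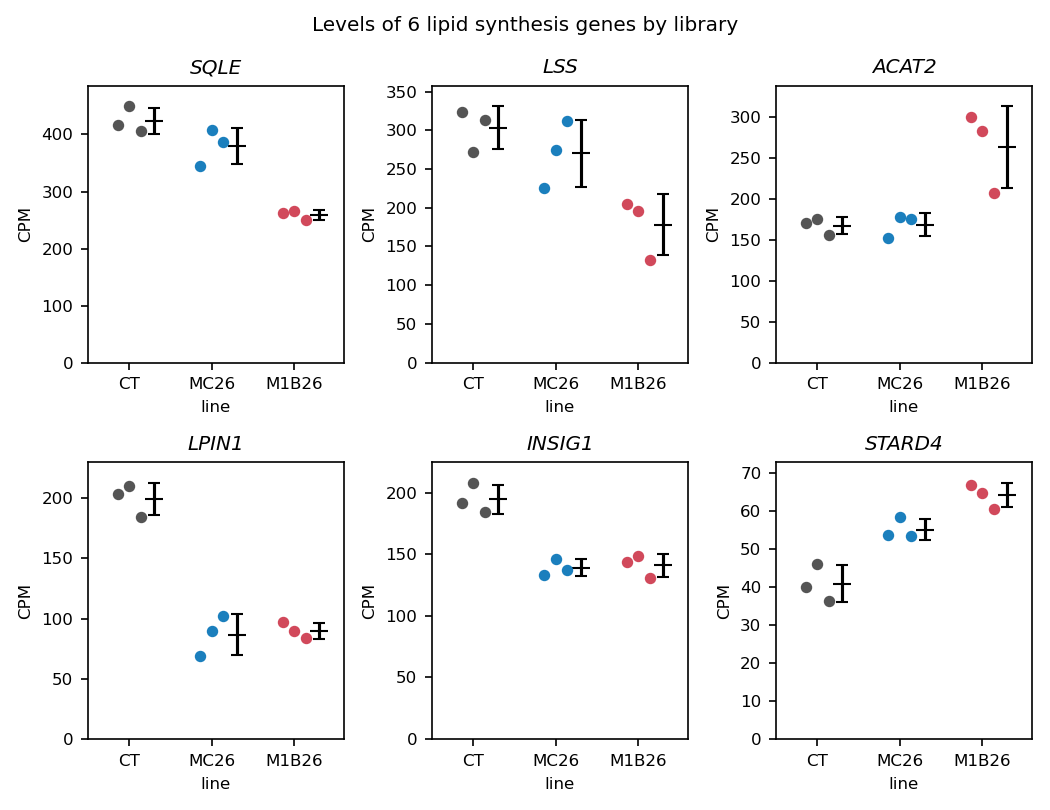
CPM of SQLE, LSS, ACAT2, LPIN1, INSIG1 and STARD4 by line, with each of 3 cultures as a point and mean ± SD beside them on axes that start at 0. SQLE and LSS are lowest and ACAT2 highest in M1B26, LPIN1 and INSIG1 are below CT in both other lines, and STARD4 is above CT in both.

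In M1B26 against CT, 25.2% of all tested genes were called higher and 23.7% lower. The fatty acid arm held 2 enzymes lower, LPIN1 and ACSS2, and 2 higher, FASN and ACLY, with a median of -0.13. The 2 that rose lie on chromosome 17, as do ACACA and the regulator SREBF1. Without the 3 chromosome 17 enzymes the median of the other 6 was -0.28 in M1B26 and -0.45 in MC26, against -0.13 and -0.27 for all 9. The MC26 value was -0.255 with MC26 replicate 1 left out and -0.698 with replicate 3 left out. In M1B26 against MC26, 39.5% of all tested genes were called (21.2% higher and 18.4% lower). Of the 843 tested genes of chromosome 17, 565 were called higher in this comparison, 22 lower and 256 not called. FASN, ACLY and ACACA were the 3 enzymes called, all higher, and none of the 6 off chromosome 17 passed in edgeR. Their median was 0.063, against 0.15 for the 9. The off-chromosome 17 enzyme nearest to a call was FADS2 (0.37, adjusted p = 0.131), which passed without MC26 replicate 3 (0.63, adjusted p = 0.00531) and with no filter on low counts (0.37, adjusted p = 0.00403).

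FASN (82078338 to 82098294, minus strand, on chromosome 17) stood at 2252, 1624 and 2252 CPM in CT, at 1844, 2012 and 2255 CPM in MC26 and at 3282, 2867 and 2866 CPM in M1B26. All M1B26 cultures were above all others, and CT and MC26 overlapped. FASN was 1.47 times its CT level in M1B26 (log2 fold change 0.56, SE 0.12, adjusted p = 0.00358) and 1.48 times its MC26 level (0.56, adjusted p = 0.00486).

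ACLY (41866917 to 41930542, minus strand) stood at 836, 750.4 and 773 CPM in CT, at 612, 700.1 and 754 CPM in MC26 and at 1006, 892 and 935 CPM in M1B26. M1B26 was again above both lines. The log2 fold change was 0.26 against CT (SE 0.085, adjusted p = 0.0243) and 0.46 against MC26 (adjusted p = 0.00188). The first of these was lost without CT replicate 2 or 3 or M1B26 replicate 1 (adjusted p = 0.0665 to 0.0924) and with total counts (adjusted p = 0.124). In MC26 against CT ACLY was at -0.19 (adjusted p = 0.0983), and it passed without MC26 replicate 3 (-0.26, adjusted p = 0.033), whereas leaving out replicate 1 gave -0.11 (adjusted p = 0.346).

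ACACA (37084992 to 37406836, minus strand) stood at 287, 302 and 291 CPM in CT, at 226, 249 and 253 CPM in MC26 and at 321, 288 and 361 CPM in M1B26. MC26 was below both other lines, and M1B26 overlapped CT. Against CT, ACACA was at -0.27 in MC26 (SE 0.084, adjusted p = 0.0242) and at 0.14 in M1B26 (adjusted p = 0.192), and M1B26 exceeded MC26 by 0.41 (adjusted p = 0.003). The call in MC26 was lost without any one CT culture or MC26 replicate 1 or 2 (adjusted p = 0.0521 to 0.0968).

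SREBF1 (17810399 to 17837002, minus strand) stood at 247, 189 and 239 CPM in CT, at 131, 160.1 and 216 CPM in MC26 and at 215, 190.1 and 221 CPM in M1B26. The 3 lines overlapped, and it was called in no comparison. MC26 was at -0.41 from CT (adjusted p = 0.0628), M1B26 at -0.11 from CT (adjusted p = 0.605) and at 0.31 from MC26 (adjusted p = 0.154). With MC26 replicate 3 left out, its highest MC26 culture, the first value was -0.63 (adjusted p = 0.00332), and with replicate 1 left out, the lowest, it was -0.26 (adjusted p = 0.217). Without CT replicate 2, its lowest CT culture, it was -0.52 (adjusted p = 0.034), and SREBF1 was also called by DESeq2 (adjusted p = 0.0376) and with total counts (adjusted p = 0.0304). Without MC26 replicate 3 it passed in M1B26 against MC26 as well (0.52, adjusted p = 0.00915).

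The tested genes of chromosome 17 were higher in M1B26 by their median. In M1B26 against CT, 543 of them were called higher, 56 lower and 244 not called, while 25.2% of all tested genes were called higher. The chromosome was not split by position. Over its 843 tested genes the log2 fold change had a median of 0.475 in M1B26 against CT and 0.478 in M1B26 against MC26, but 0.00106 in MC26 against CT. Off chromosome 17 the medians of 12987 placed genes were -0.0086, -0.018 and 0.0068 in the same order. The M1B26 against CT values of FASN (0.56), ACLY (0.26), ACACA (0.14) and SREBF1 (-0.11) therefore lay 1 above and 3 below the median of their chromosome.

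With libraries scaled by chromosome 17 genes alone, M1B26 against CT gave FASN 0.11 (adjusted p = 0.365), ACLY -0.19 (adjusted p = 0.052), ACACA -0.32 (adjusted p = 0.00646) and SREBF1 -0.56 (adjusted p = 0.0045). On this scale the rise of FASN was no longer called, ACLY and ACACA changed sign, and ACACA and SREBF1 were called lower than CT. The scale applies the same shift to every gene, and whether the shift was even along the chromosome was not tested. M1B26 against MC26 gave 0.099 (adjusted p = 0.418), -0.0074 (adjusted p = 0.942), -0.050 (adjusted p = 0.63) and -0.16 (adjusted p = 0.354) for the same 4 genes, none of them called. In MC26 against CT this scaling moved the 4 values by at most a few hundredths, and SREBF1 passed (-0.40, adjusted p = 0.0467). The copy number of chromosome 17 was not measured in these data and its part in the values was not tested.

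**Figure D4:**
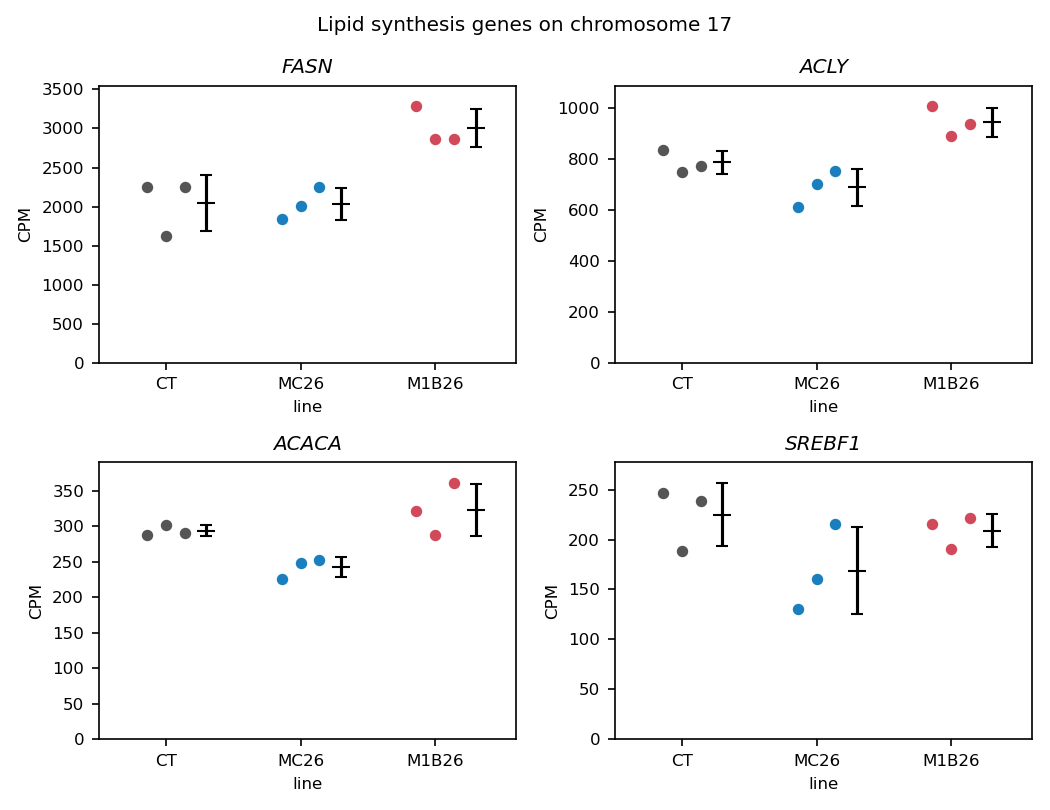
CPM of FASN, ACLY, ACACA and SREBF1, the lipid synthesis genes on chromosome 17, by line, with each of 3 cultures as a point and mean ± SD beside them on axes that start at 0. FASN and ACLY are highest in M1B26 without overlap, ACACA is lowest in MC26, and SREBF1 overlaps across the lines.

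Of the 4 regulators, INSIG1 was the one called, and it was lower in both lines. Over all tested genes, 38.7% were called in MC26 against CT (19.9% lower) and 48.9% in M1B26 against CT (23.7% lower). INSIG1 stood at 191, 208 and 184 CPM in CT, at 133, 146 and 138 CPM in MC26 and at 144, 149 and 131 CPM in M1B26. CT lay above both other lines, which overlapped each other. INSIG1 was at 0.715 times its CT level in MC26 (log2 fold change -0.48, SE 0.074, adjusted p = 0.000512) and at 0.726 times in M1B26 (-0.46, SE 0.074, adjusted p = 0.000453).

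SREBF2 stood at 359, 301 and 362 CPM in CT, at 259, 276 and 341 CPM in MC26 (-0.22, adjusted p = 0.113) and at 297, 281 and 291 CPM in M1B26 (-0.23, SE 0.10, adjusted p = 0.0845). Its M1B26 cultures did not overlap CT, but the test was passed only with a library left out or another fit. When only the 6 libraries compared were fitted, SREBF2 passed in M1B26 against CT (-0.24, adjusted p = 0.03). Without CT replicate 2 it passed in both comparisons (MC26 -0.30, adjusted p = 0.0419; M1B26 -0.32, adjusted p = 0.0269), and likewise without MC26 replicate 3 (-0.35, adjusted p = 0.0105, and -0.23, adjusted p = 0.0299). With MC26 replicate 1 left out the MC26 value of SREBF2 was -0.14 (adjusted p = 0.363). SCAP, the escort protein, stood at 96.2 to 128 CPM in CT, 100.2 to 117 CPM in MC26 and 111 to 120 CPM in M1B26, with changes of -0.11 (adjusted p = 0.438) and 0.007 (adjusted p = 0.962).

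Both transport proteins of the list were higher in each line. These 2 genes stand beside 18.8% of all tested genes called higher in MC26 against CT and 25.2% in M1B26 against CT. STARD4, which carries cholesterol between membranes, stood at 39.9, 46.0 and 36.4 CPM in CT, at 53.5, 58.3 and 53.4 CPM in MC26 and at 66.9, 64.8 and 60.6 CPM in M1B26. The 3 lines did not overlap. STARD4 was 1.36 times its CT level in MC26 (log2 fold change 0.44, SE 0.088, adjusted p = 0.00264) and 1.58 times in M1B26 (0.66, SE 0.088, adjusted p = 0.000132). The step between the 2 lines, 0.22, missed the threshold (adjusted p = 0.0667). It passed without CT replicate 2 (0.21, adjusted p = 0.0234) and when only the 6 libraries compared were fitted (0.21, adjusted p = 0.0273). NPC1, which exports cholesterol from lysosomes, stood at 72.5, 73.1 and 72.8 CPM in CT, at 89.3, 96.4 and 86.3 CPM in MC26 and at 91.2, 88.5 and 95.1 CPM in M1B26 (0.32, adjusted p = 0.00258, and 0.33, adjusted p = 0.00137). Its CT cultures were nearly alike and lay below the rest.

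Within a line, single cultures were low across an arm. M1B26 replicate 3 was the lowest of its line in 18 of 18 sterol enzymes and in 7 of 9 fatty acid enzymes, whereas it was lowest in 36.1% of all tested genes. Its sterol enzymes lay a median of -0.33 from the mean of the other 2 cultures on the log2 scale, from -0.079 for SQLE to -0.74 for MVD, while the median over all genes was -0.0012. The sum of the sterol enzymes was 4507, 4410 and 3424 CPM in the 3 M1B26 cultures. Of the 4 genes on chromosome 17, M1B26 replicate 3 was lowest in 1, which was FASN.

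In MC26 it was replicate 1 that was low. It was the lowest of its line in 14 of 18 sterol enzymes and 9 of 9 fatty acid enzymes, against 36.6% of all tested genes, and its fatty acid enzymes lay a median of -0.27 from the other 2 cultures, from -0.12 for ELOVL6 to -0.69 for SCD. The summed fatty acid enzymes were 4389, 5274 and 6137 CPM in the 3 MC26 cultures, 6656, 5767 and 6028 CPM in CT and 7141, 6477 and 6297 CPM in M1B26. Leaving out MC26 replicate 1 gave an arm median of -0.14 in MC26 against CT, and leaving out replicate 3 gave -0.30. LPIN1 and ACSS2 were called in both of those cases, and FADS2 and ACACA in the second alone.

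**Figure D5:**
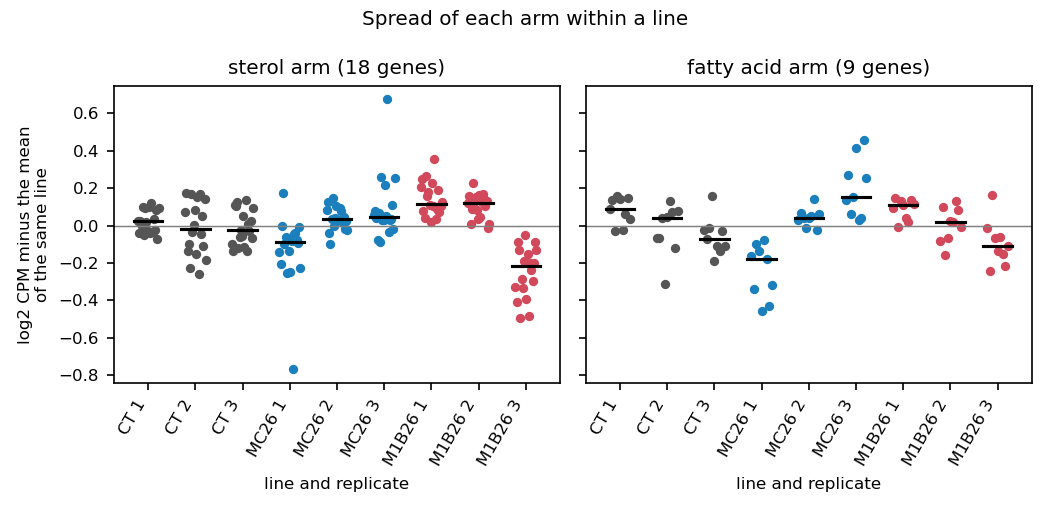
Log2 CPM of each sterol enzyme (left, 18 genes) and fatty acid enzyme (right, 9 genes) minus the mean of the same line, by library, with a black bar at the median. All 18 sterol points of M1B26 replicate 3 lie below 0, and all 9 fatty acid points of MC26 replicate 1 lie below 0.

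The calls of the 2 arms were set side by side. Over all tested genes 38.7% were called in MC26 against CT, 48.9% in M1B26 against CT and 39.5% in M1B26 against MC26. In MC26 the sterol arm had 1 gene higher and 1 lower of 18, and the fatty acid arm had 0 higher and 4 lower of 9. In M1B26 the counts were 2 higher and 4 lower, and 2 higher and 2 lower. In M1B26 against MC26 they were 1 higher (ACAT2) and 4 lower (SQLE, LSS, PMVK and MVK), and 3 higher and 0 lower, the last all on chromosome 17. These are counts beside medians of 0.063 and -0.27, of -0.033 and -0.13, and of -0.12 and 0.15, and the difference between the arms was not tested. The sterol median against MC26 was 0.00208 without M1B26 replicate 3.

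The neighbouring steps of lipid metabolism were read from 5 further lists of 59 genes. Over all tested genes, 38.7% were called in MC26 against CT (19.9% lower) and 48.9% in M1B26 against CT (23.7% lower). The share in M1B26 against MC26 was 39.5%, with 21.2% higher and 18.4% lower. Of 14 enzymes of fatty acid oxidation, 12 were lower in MC26 than in CT and 0 higher (median -0.36). When any 1 library was left out, 10 to 13 were lower. In M1B26 9 were lower and 1, ACADS, was higher (median -0.23). ACADS, the short-chain acyl-CoA dehydrogenase, was low, at means of 5.28 CPM in CT, 3.77 CPM in MC26 and 8.0 CPM in M1B26. ACADS fell by 0.50 in MC26 (adjusted p = 0.0246), while M1B26 was above CT by 0.59 (adjusted p = 0.00733), a difference of 1.09 between the lines (adjusted p = 0.000349). In M1B26 against MC26, 5 of the 14 were higher and 1 lower.

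Of 19 enzymes that feed, elongate or esterify fatty acids, 9 were called in MC26 (3 higher and 6 lower) and 10 in M1B26 (5 higher and 5 lower), and 8 between the lines (4 higher and 4 lower). Those past a 2-fold change were ACSL1, a ligase that activates fatty acids, with MC26 at -1.19 (adjusted p = 0.000955) and M1B26 at -1.24 (adjusted p = 0.00048), and GPAM, the acyltransferase that opens glycerolipid synthesis, at -1.12 in M1B26 against MC26 (adjusted p = 0.000349). Of 7 genes that process SREBPs, 4 were called in each comparison, with 1 higher and 3 lower in MC26, 1 higher and 3 lower in M1B26, and 2 and 2 between them. Of 10 genes of sterol esters and efflux, 5 were called in MC26 (3 higher and 2 lower), 5 in M1B26 (4 higher and 1 lower) and 2 between the lines (1 and 1). Of 9 genes of the isoprenoid branch, which leaves the sterol arm at farnesyl diphosphate, 4 (2 and 2), 3 (0 higher and 3 lower) and 3 (1 and 2) were called. All these counts stand beside 38.7%, 48.9% and 39.5% of all tested genes called in the same 3 comparisons.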

How the data were processed

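RNA libraries of 9 cultures were poly-A selected and read from both ends. STAR 2.7.3a with GRCh38 and Salmon 1.1.0 are the tools named in the methods and the submitters' processing notes. The deposited values were whole raw counts per gene symbol, and the program, strandedness and multi-mapping rule behind these counts are not given in the sources used here. Samples were grouped by title. In R 4.3.3, edgeR 4.0.16 kept 15717 genes by filterByExpr (minimum count 10), scaled libraries by TMM and fitted a quasi-likelihood model with line as its only term to all 9 libraries (biological coefficient of variation 10.4%). Tests were 2-sided, with Benjamini-Hochberg adjustment over all genes tested. An SE was the absolute log2 fold change divided by the square root of F. Positions and exonic lengths came from GENCODE v44, in which 36923 of 60199 symbols had a unique gene. Figures were drawn in Python 3.11.15 with matplotlib 3.10.9.

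Every gene of the list was named, with those past a 2-fold change or on chromosome 17 given by library, and neighbouring genes were named where called past 2-fold. The genes and lists were chosen with earlier results of these data known. The alternatives tried were total counts, RLE factors, DESeq2 1.42.0, other filters, the 6 libraries compared, a replicate block, leaving out each library, an adjusted p under 0.01 and scaling by chromosome 17. Offsets for length and GC content were added after seeing the data.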

Additional observations from a re-analysis of the deposited data

Results flagged for a closer look

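Within the lines derived under BMP2 and IL6, 8 of the 33 genes differed between M1B26 and MC26 in edgeR's direct test of the 2 lines. Higher in M1B26 were ACAT2 (log2 fold change 0.65, adjusted p = 0.00218), FASN (0.56, adjusted p = 0.00486), ACLY (0.46, adjusted p = 0.00188) and ACACA (0.41, adjusted p = 0.003). Lower in M1B26 were LSS (-0.61, adjusted p = 0.0118), SQLE (-0.55, adjusted p = 0.000263), PMVK (-0.39, adjusted p = 0.0071) and MVK (-0.27, adjusted p = 0.0158). These 8 of 33 stand beside 39.5% of all tested genes called. FASN, ACLY and ACACA lie on chromosome 17, whose tested genes had a median of 0.478 in this comparison. No test of single outlying cultures was made in groups of 3.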

How the results depend on the processing

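Over 17 to 18 alternatives per comparison, values for single genes stayed on their side of the threshold in 1614 cases. With the sign kept, they gained a call in 56 and lost one in 21. The sign changed in 77 of 1695 cases, in 73 of them with the gene called under neither setting. The other 4, which are not among those gains and losses, arose with scaling by chromosome 17 genes. They were ACACA (-0.32 and -0.050) and ACLY (-0.19 and -0.0074) in M1B26 against CT and against MC26. At an adjusted p under 0.01, 3698 genes were called in MC26 against CT and 3685 in M1B26 against MC26. With offsets for length and GC content, 7518 genes were called in MC26 against CT and 7470 in M1B26 against MC26. Among them were 4 and 8 sterol enzymes, and the fatty acid median in M1B26 against CT was 0.000323. Without chromosome 17 genes the fatty acid medians were -0.453 and -0.278 against CT. Leaving out 1 library, the fatty acid arm had 2 to 6 enzymes called in MC26 against CT (median -0.304 to -0.136), and its median in M1B26 against MC26 was 0.0344 to 0.297. The cause was not tested. Deviations of same-numbered cultures correlated at -0.173 to 0.356, with 3 of 9 over 0.1, and the own number was the best match in 3 of 9. In M1B26 against MC26 they were 0.198, 0.0652 and 0.195. So few values cannot decide whether the numbers mark pairs. A replicate block called 5879, 7513 and 6009 genes, of the lipid genes 10, 13 and 9. With it, edgeR also called SREBF1 in MC26 against CT (-0.42, adjusted p = 0.0361) and STARD4 in M1B26 against MC26 (0.22, adjusted p = 0.0422). CT replicate 2 was the shallowest, with 21425118 counts.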
